A study of Mus musculus with 9 samples.

Results

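The genes that make, package and sense γ-aminobutyric acid (GABA), with a pair of chloride transporters, were followed through the prenatal growth of the mouse olfactory bulb, where the axons of the nose's sensory neurons end. They were Gad1, Gad2, Slc32a1, Slc12a2, Slc12a5, Gabra2, Gabra3, Gabrb2 and Gabrg1. A probe set, the group of short oligonucleotides that reads 1 transcript on the array, was taken where its single gene symbol was 1 of these names. This gave 27 of the 45101 probe sets on the array and 9 of the 18193 genes named by a single symbol. Bulbs came from CD1 mice, an outbred strain, at embryonic day 11 (E11), E12, E13, E14, E15, E16, E17, E18 and at birth (P0). No animal carried a treatment or an engineered allele, per the labels. Each age was 1 array made from the bulbs of 1 embryo or newborn, after 2 rounds of RNA amplification. No age had a replicate, so every error given here is the scatter of the 9 animals around a trend, and the number of arrays limits the precision.

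GABA is made from glutamate by the glutamate decarboxylases that Gad1 and Gad2 encode, and is loaded into synaptic vesicles by the transporter encoded by Slc32a1. It opens the GABA-A receptor, a chloride channel assembled from subunits of the alpha, beta, gamma and smaller families. Whether the open channel lets chloride in or out depends on the chloride that the cell holds, which Slc12a2 (NKCC1) raises by import and Slc12a5 (KCC2) lowers by export. In the olfactory bulb GABA is the transmitter of granule cells and of many periglomerular cells, the interneurons that inhibit mitral and tufted cells.

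Promoters are shown for 4 genes whose courses are set apart below, the decarboxylase Gad1, the chloride exporter Slc12a5 and the neighbouring receptor genes Gabra2 and Gabrg1. The sequences are the 250 bases before a transcription start in RefSeq, build GRCm38.p6, read 5′ to 3′ on the strand of the gene. They lie at chr2:70561879-70562128 on the + strand for Gad1, chr2:164967738-164967987 on the + strand for the more downstream of the Slc12a5 starts, chr5:71095850-71096099 on the - strand for Gabra2 and chr5:70842618-70842867 on the - strand for Gabrg1. Capitals mark matches to the searched motifs.
Gad1: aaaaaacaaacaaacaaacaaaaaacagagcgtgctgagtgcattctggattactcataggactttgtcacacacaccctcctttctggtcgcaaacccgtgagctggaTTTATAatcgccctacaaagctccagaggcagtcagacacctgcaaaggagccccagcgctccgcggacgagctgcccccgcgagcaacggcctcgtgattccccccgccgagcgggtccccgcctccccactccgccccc
Slc12a5: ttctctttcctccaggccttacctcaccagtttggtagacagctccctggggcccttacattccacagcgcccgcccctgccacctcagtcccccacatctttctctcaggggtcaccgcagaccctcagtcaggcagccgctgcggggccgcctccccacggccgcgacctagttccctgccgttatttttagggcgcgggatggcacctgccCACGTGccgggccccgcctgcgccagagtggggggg
Gabra2: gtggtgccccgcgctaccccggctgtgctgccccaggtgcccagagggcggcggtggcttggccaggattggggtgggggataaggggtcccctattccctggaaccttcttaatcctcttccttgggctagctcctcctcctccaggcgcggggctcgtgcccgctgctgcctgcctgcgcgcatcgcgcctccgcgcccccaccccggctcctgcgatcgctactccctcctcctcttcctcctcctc
Gabrg1: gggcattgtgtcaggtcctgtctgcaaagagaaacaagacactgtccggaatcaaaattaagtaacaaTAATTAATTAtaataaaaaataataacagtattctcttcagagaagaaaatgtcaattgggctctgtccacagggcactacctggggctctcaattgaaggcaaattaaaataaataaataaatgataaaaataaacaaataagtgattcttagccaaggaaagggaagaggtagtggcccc
The motifs, each of 6 bases and searched on both strands, were the E-boxes CACGTG and CAGCTG, the homeobox core TAATTA and the TATA box TATAAA. The Gad1 window held a TATA match read on the opposite strand, starting 141 bases before the start site, and 12.4% of the 32851 windows in the table held this motif. The Slc12a5 window held CACGTG at 36 bases before the start, a motif in 6.02% of all windows. The Gabrg1 window held 2 overlapping copies of TAATTA at 182 and 178 bases before the start, a motif in 4.84% of all windows. The Gabra2 window held none of these letters. CAGCTG was in 13% of all windows and in 0 of the 12 windows of the genes followed here, which covered 8 of the 9 genes. The Gabra2 and Gabrg1 windows differed most in base composition, with a GC content of 70.0% and 18 CpG in the former and 35.6% and 1 CpG in the latter, beside a median of 52.4% and 6 CpG over all windows. A match is a description of the letters in the window, and no binding was measured.

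Levels are log2 values of the authors, so a difference of 1 is a 2-fold change, and a level can be compared between ages for 1 gene but not between genes. The median over all probe sets lay between 4.08 and 4.23 on the 9 arrays. Each gene was represented by its probe set with the highest mean, and a gene was tested where that probe set read 5 or more on at least 2 arrays, which held for all 9 genes. Xist, the transcript of the inactive X chromosome, read 13.42 to 13.98 on the arrays of E11, E12, E15 and P0 and at most 2.89 on the other 5, so the series held 4 females and 5 males. In whole bulbs a lower level can come from fewer cells of a type or from less RNA per cell, and the 2 cannot be told apart.

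Of the 9 genes, 8 rose from E11 to P0, 0 fell and 1, Slc12a2, did not pass the test (limma, linear slope on age, Benjamini-Hochberg over 10864 genes, threshold 0.05). Over all genes tested, 25.2% rose and 21.9% fell, which is 2743 and 2382 genes. With each array centred on its median the balance turned, with 2392 rising and 2986 falling, and the same number of the 9 genes, 8, rose. The median slope of the 9 genes was 0.42 log2 units per day, beside 0.0020 over all genes tested. The highest level of 8 of the 9 genes was reached at E15 or later. That span holds most of the ages, and the share over all genes tested was not counted. The members were chosen with earlier results of these arrays known, so the count describes them and is no independent evidence of a direction.

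**Figure D1:**
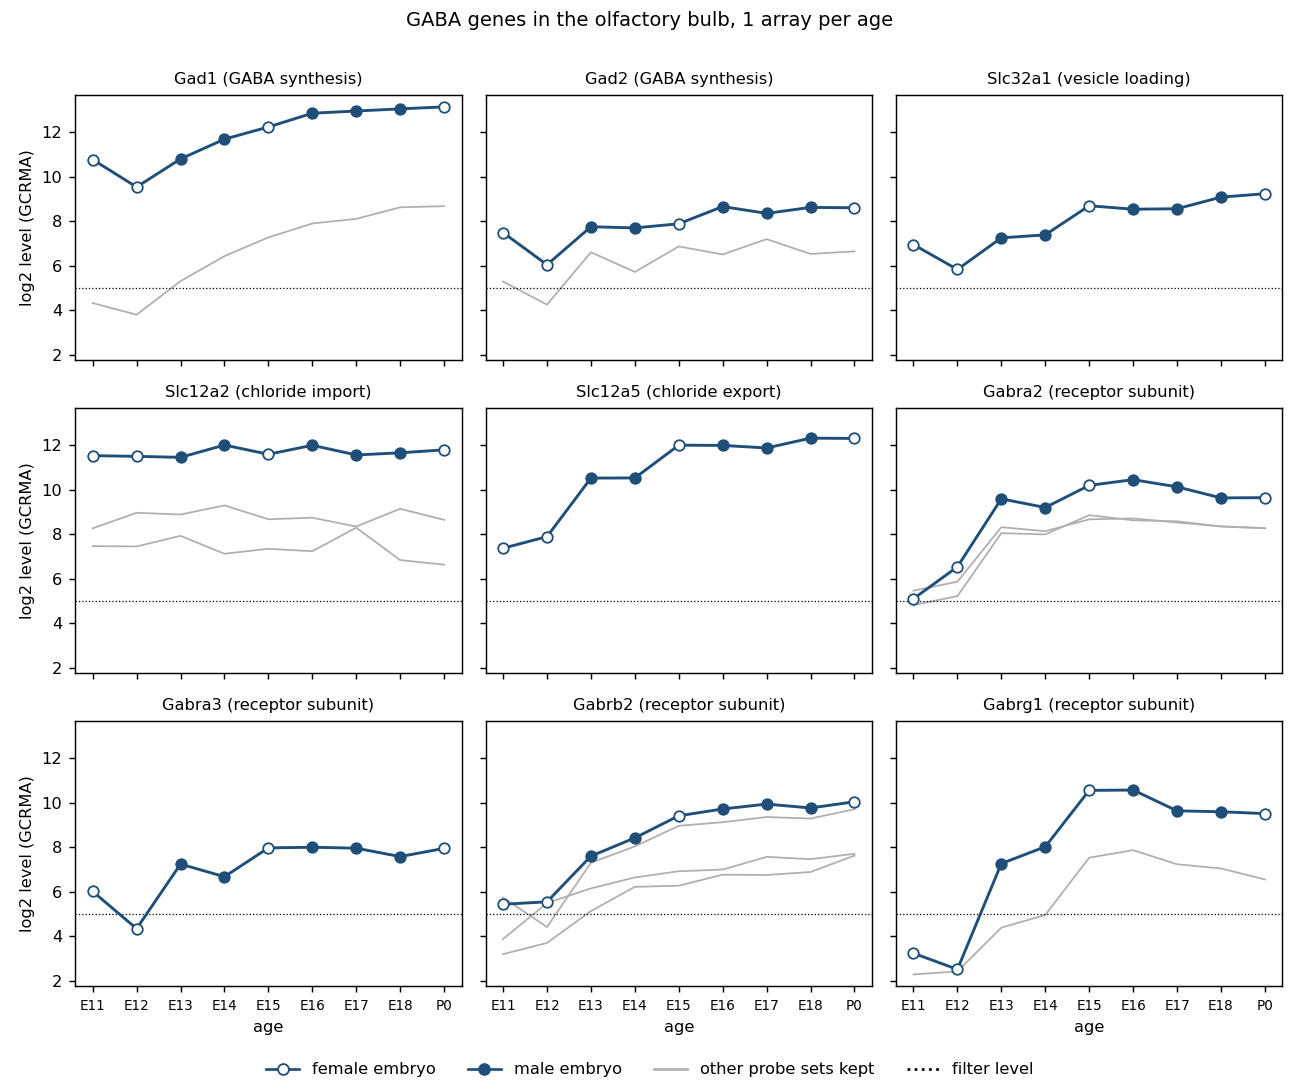
Log2 level (y axis) of the 9 genes against age from E11 to P0 (x axis), 1 panel a gene, with 1 point per array, open for females and filled for males. Grey lines are the other probe sets that passed the filter and the dotted line is the filter level of 5. Gad1, Gad2, Slc32a1 and Gabra3 were lowest at E12, Gabrg1 was under 5 at E11 and E12, Slc12a2 stayed within 0.55 log2 units, and Gabra2 and Gabrg1 were highest at E16.

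The decarboxylases rose together with the vesicle transporter. Gad1, which encodes GAD67, read 10.76 at E11, 9.53 at E12, 10.79 at E13, 11.68 at E14, 12.23 at E15, 12.84 at E16, 12.94 at E17, 13.04 at E18 and 13.13 at P0. After its low reading at E12 it was higher at every later age than at the one before. The slope was 0.42 ± 0.062 log2 units per day (SE, n = 9, limma, Benjamini-Hochberg adjusted p = 0.000413), and P0 was 5.16-fold above E11. Gad2, which encodes GAD65, read 7.48, 6.03, 7.74, 7.69, 7.88, 8.65, 8.34, 8.61 and 8.59 over the same ages. Its readings from E16 to P0 lay above all the earlier ones. The slope of Gad2 was 0.24 ± 0.060 (SE, n = 9, limma, adjusted p = 0.00829) and its P0 level was 2.17-fold above E11.

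Slc32a1, the vesicular transporter VGAT, read 6.94, 5.82, 7.24, 7.38, 8.69, 8.53, 8.55, 9.07 and 9.23 from E11 to P0. The 5 arrays from E15 on all read above the 4 earlier ones. Its slope was 0.38 ± 0.059 (SE, n = 9, limma, adjusted p = 0.000611), and P0 was 4.88-fold above E11. All 3 of these genes also rose when the fit was confined to E13 to P0, with slopes of 0.37 ± 0.054 for Gad1, 0.17 ± 0.042 for Gad2 and 0.33 ± 0.055 for Slc32a1 (SE, limma, adjusted p = 0.00170, 0.0159 and 0.00333).

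The chloride transporters differed in course. Slc12a2, the importer NKCC1, read 11.53, 11.50, 11.45, 12.00, 11.59, 11.99, 11.56, 11.65 and 11.79. High readings at E14 and E16 alternated with readings near that of E11, and the slope of 0.029 ± 0.025 did not pass the test (SE, n = 9, limma, adjusted p = 0.372). Its 95% interval ran from -0.027 to 0.084 log2 units per day.

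Slc12a5, the exporter KCC2, read 7.37 at E11, 7.89 at E12, 10.52 at E13, 10.53 at E14, 12.00 at E15, 11.99 at E16, 11.87 at E17, 12.31 at E18 and 12.30 at P0. It climbed in steps, with a plateau over E13 and E14 and a second from E15 on, where the 5 readings spanned 0.44 log2 units. The slope was 0.62 ± 0.098 (SE, n = 9, limma, adjusted p = 0.000691), and P0 was 30.6-fold above E11. From E13 to P0 alone the slope of Slc12a5 was 0.31 ± 0.063 (SE, limma, adjusted p = 0.00748).

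All 4 receptor subunit genes rose over the full course, and 1 of them, Gabrb2, also from E13 to P0. Gabrb2, which encodes the beta2 subunit, read 5.44, 5.55, 7.60, 8.42, 9.41, 9.72, 9.94, 9.77 and 10.04. Its level was highest at P0, 24.4-fold above E11. The slope was 0.62 ± 0.086 over all ages and 0.38 ± 0.069 from E13 (SE, limma, adjusted p = 0.000316 and 0.00468).

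Gabra2, which encodes the alpha2 subunit, read 5.10, 6.53, 9.59, 9.20, 10.19, 10.45, 10.13, 9.63 and 9.64. The readings from E13 on were all above those of E11 and E12, with the highest at E16 and a P0 level 0.81 log2 units below it. The slope of Gabra2 was 0.50 ± 0.14 (SE, n = 9, limma, adjusted p = 0.0161) and P0 was 23.3-fold above E11. The call rested on the first arrays, since the adjusted p was 0.109 without E11, 0.0539 without E12 and 0.757 from E13 to P0, where the slope was 0.034 ± 0.070 (SE, limma).

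Gabra3, the X-linked gene of the alpha3 subunit, read 6.01, 4.34, 7.24, 6.68, 7.97, 8.00, 7.96, 7.58 and 7.95. Its E12 reading was the lowest and the only one under the filter level of 5. The slope of Gabra3 was 0.34 ± 0.096 (SE, n = 9, limma, adjusted p = 0.0152), P0 was 3.83-fold above E11, and with embryo sex in the fit the slope was 0.31 (adjusted p = 0.0297). From E13 to P0 the slope of 0.14 ± 0.068 did not pass (SE, limma, adjusted p = 0.163).

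Gabrg1, which encodes the gamma1 subunit, went from readings under the filter level of 5 to well above it. It read 3.24 at E11 and 2.51 at E12, then 7.27, 8.02, 10.56, 10.57, 9.64, 9.60 and 9.51. The level at P0 was at least 22.8-fold above E11, with readings under 5 set to 5, and 1.06 log2 units under the highest reading at E16. Its slope was 0.89 ± 0.21 (SE, n = 9, limma, adjusted p = 0.00523), a size that rests on the low readings, since it was 0.65 with readings under 5 set to 5 (limma, adjusted p = 0.00418). From E13 to P0 the slope of Gabrg1 was 0.32 ± 0.16 and did not pass (SE, limma, adjusted p = 0.175).

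**Figure D2:**
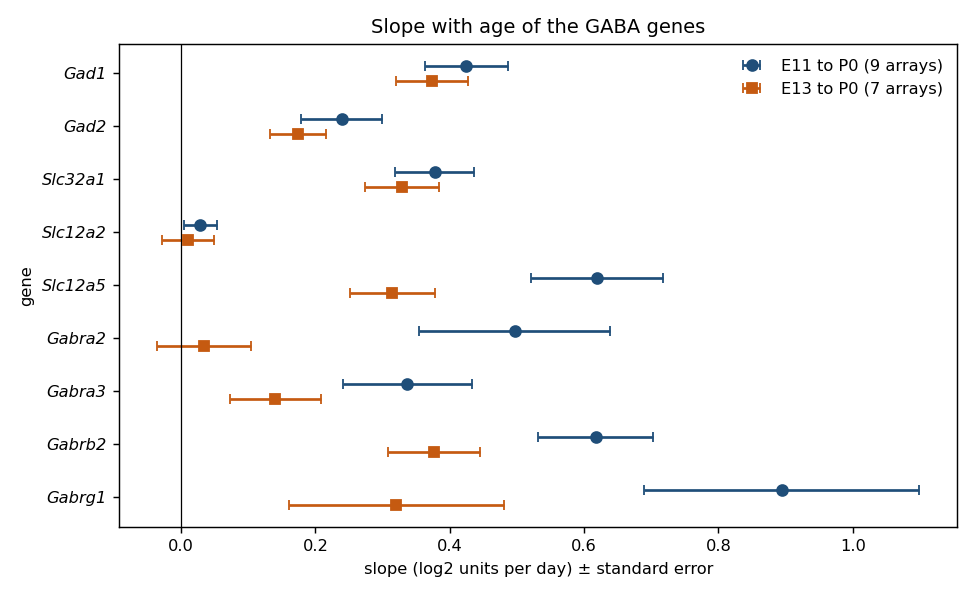
Slope of the log2 level on age (log2 units per day) for the 9 genes, with bars of 1 standard error, from all 9 arrays and from E13 to P0 alone. Over all arrays 8 genes passed the test, and from E13 to P0 5 did, with Gabra2 moving from 0.50 to 0.034.

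From E13 to P0, 5 of the 9 genes rose, namely Gad1, Gad2, Slc32a1, Slc12a5 and Gabrb2, beside 14.2% of the 10765 genes tested there. With embryo sex as a term in the fit all 8 rises passed, with adjusted p from 0.000614 for Gabrb2 to 0.0297 for Gabra3 (limma). The share of the change that fell between E12 and E13 differed by gene. Of the 9 genes, 8 were at least 2-fold higher at E13 than at E12, beside 7.17% of all genes tested, a comparison of single arrays with no test.

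The step from E12 to E13 was 3.06 log2 units for Gabra2, 2.63 for Slc12a5 and 2.05 for Gabrb2. For Gad2, Slc32a1 and Gad1 it was 1.71, 1.42 and 1.26, and for Slc12a2 it was -0.045. Gabrg1 and Gabra3 read under 5 at E12, so their steps have only a lower bound, at least 4.81-fold and at least 4.73-fold with readings under 5 set to 5. For Gad1, Gad2 and Slc32a1 the step followed a lower reading at E12 than at E11, by 1.23, 1.44 and 1.12 log2 units, and Gabra3 was lower at E12 as well. In all, 6 of the 9 genes read lower at E12 than at E11, among them Gabrg1, which was under 5 at both, beside 54.8% of all genes tested.

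**Figure D3:**
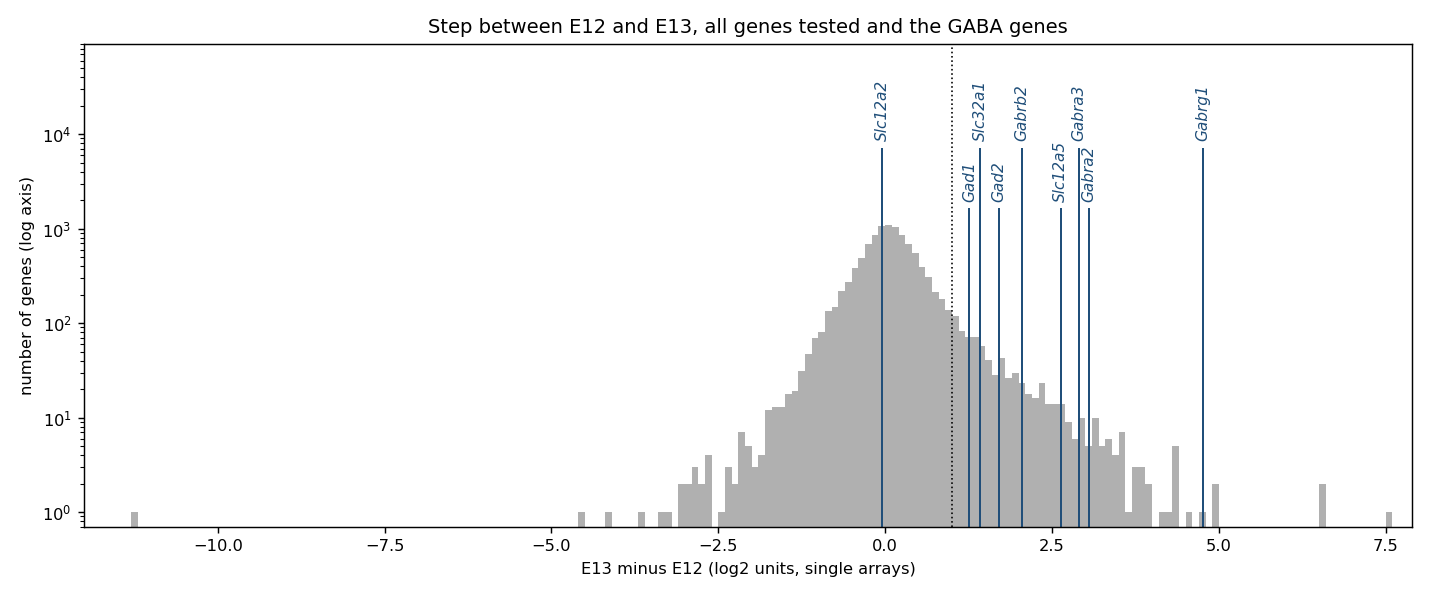
Histogram of the difference between E13 and E12 (x axis, log2 units) over the 10864 genes tested, with the number of genes on a log y axis and each of the 9 genes as a vertical line. The dotted line is a 2-fold step, and 8 genes lie to the right of it. The lines of Gabrg1 and Gabra3 use E12 readings under 5, so their place along the x axis is not measured.

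Other values moved over the same arrays. Beside the counts that follow, 25.2% of all genes tested rose, 21.9% fell and 7.17% were at least 2-fold higher at E13 than at E12. Readings under 5 were counted as they stood. The E11 and E12 embryos were female and the E13 and E14 embryos male. Among 11 pan-neuronal genes the median level was 10.12 at E11, 10.73 at E12, 11.33 at E13 and 12.10 at P0, with 7 of 11 rising over the course, and 3 of 11 were at least 2-fold higher at E13 than at E12. Nefl and Syt1 had the largest slopes of the 11, 0.64 and 0.41 (limma, adjusted p = 0.000113 and 0.00484). Their steps from E12 to E13 were 1.99 and 2.15 log2 units. Tubb3, an early neuronal tubulin, was 1 of the 4 that did not pass, with a slope of 0.046 (limma, adjusted p = 0.266). Of 7 mitral and tufted cell genes tested, 4 were at least 2-fold higher at E13 than at E12. Of these 4, Slc17a7 read 2.51 at E12 and 3.91 at E13, both under 5, so its step is not measured. Tbx21, also 1 of the 4, read 4.15 at E12, so its step has only a lower bound. Among 7 transcription factors of the GABAergic lineage, 6 rose and 1 fell, and 1 had a 2-fold step. The factor with the step was Dlx1, a homeobox factor of these neurons, which read 11.28 at E11, 10.03 at E12 and 11.14 at E13. The factor that fell was Gsx2, a progenitor factor of the ventral forebrain, which read 8.10, 6.36 and 6.06. From E11 to E12 Dlx1 and Gsx2 changed by -1.25 and -1.74 log2 units. The other factors changed less, with -0.083 for Dlx2, -0.47 for Dlx5, -0.24 for Sp8 and 0.28 for Meis2. Dlx6 read under 5 at both ages, so its change is not measured. Of 7 genes of ventral forebrain outside the bulb, 2 fell, 1 did not pass and 4 stayed under the filter. Isl1, a marker of striatal and other ventral neurons, stood at 10.14 at E11 and 6.93 at E12 and had come down to 2.34 at P0. Ebf1 fell too, from 8.14 at E11 and 9.32 at E12 to 6.94 at P0, and Foxp2 read 9.23 to 10.15 on all arrays and did not pass (limma, adjusted p = 0.271). Nkx2-1, Lhx6 and Six3 read at most 1.91, 4.67 and 3.13, and Lhx8 passed 5 on 1 array, at 5.39. All 3 embryonic globin genes tested fell, with a median of 14.26 at E11, 11.90 at E12, 8.51 at E13 and 2.90 at P0. All 4 cycling cell genes tested fell, from a median of 12.33 at E11 to 9.24 at P0. All 7 genes of astrocytes and radial glia rose, and 3 of 7 had the 2-fold step, among them Aldh1l1, at 2.31 at E12 and 8.82 at E13. The step was also seen in 3 of 4 genes of olfactory ensheathing cells and 3 of 4 of microglia. The part of embryo sex, of the other cell types or of neuron number in the steps of the GABA genes was not tested.

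A turning point inside the course, from the quadratic term of a fit on age and age squared, was called as a peak for 4 of the 9 genes, Slc12a5, Gabra2, Gabrb2 and Gabrg1, beside 5.31% of all genes tested. The quadratic terms were -0.12 ± 0.023, -0.18 ± 0.027, -0.10 ± 0.020 and -0.24 ± 0.052 log2 units per squared day (SE, limma, adjusted p = 0.0175, 0.00707, 0.0154 and 0.0270). The fitted turning points lay at day 17.6, 16.4, 18.0 and 16.9, with P0 counted as day 19. With readings under 5 set to 5 the quadratic term of Gabrg1 was -0.17 (limma, adjusted p = 0.0307), and the same number of peaks, 4, was called. For Slc12a5 and Gabrb2 the readings levelled off, with P0 within 0.012 log2 units of the highest reading or itself the highest. For Gabra2 and Gabrg1 the readings at E18 and P0 were below those at E15 and E16. The call for Gabrg1 was lost without E15, E16, E18 or P0 (limma, adjusted p = 0.0793, 0.0656, 0.0555 and 0.0729). Without E15 the quadratic term passed for Gabra2 alone (limma, adjusted p = 0.0305), with 0.0570 for Slc12a5 and 0.0546 for Gabrb2. Without E11 the term of Slc12a5 was lost as well (limma, adjusted p = 0.0571) and that of Gad1 passed (adjusted p = 0.00399).

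Changes were also compared directly in 3 pairs of genes, by an exact permutation test of the slope of their difference over all 362880 orders of the 9 arrays, two-sided, with Benjamini-Hochberg adjustment over the 3 pairs. The smallest p this design allows is 5.51e-06. With E11 set to 0, Slc12a5 minus Slc12a2 was 0.55 at E12, 3.23 at E13, 2.68 at E14, 4.57 at E15, 4.16 at E16, 4.47 at E17, 4.82 at E18 and 4.67 at P0. The difference grew by 0.59 log2 units per day (exact permutation p = 0.000502, adjusted p = 0.00150) and was positive at each of the 8 ages after E11. From E13 to P0 alone it grew by 0.30 per day (exact permutation adjusted p = 0.0278).

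Gad1 minus Gad2, with E11 set to 0, was 0.21, -0.24, 0.71, 1.07, 0.91, 1.32, 1.15 and 1.25 from E12 to P0. The first 2 values lay around 0 and the later ones above it. The difference grew by 0.19 log2 units per day (exact permutation p = 0.00227, adjusted p = 0.00341), for 1 probe set per gene. The 2 Gad1 probe sets themselves differed in slope, 0.42 and 0.65, and the part of probe set response was not tested. With the mean of each gene's probe sets the difference grew by 0.30 per day (exact permutation adjusted p = 0.000868). Gabra2 minus Gabra3 was 3.10 at E12 and 3.26, 3.43, 3.14, 3.36, 3.08, 2.96 and 2.60 from E13 to P0. The difference changed most between E11 and E12, but Gabra3 read under 5 at E12, so the size of that change is not measured. The slope of the difference was 0.16 and did not pass (exact permutation adjusted p = 0.323). With readings under 5 set to 5 it was 0.19 and did not pass either (exact permutation adjusted p = 0.176). Without E11 the slope was -0.069 (exact permutation adjusted p = 0.0715), and from E13 to P0 it was -0.11 (exact permutation adjusted p = 0.0278), the opposite direction.

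**Figure D4:**
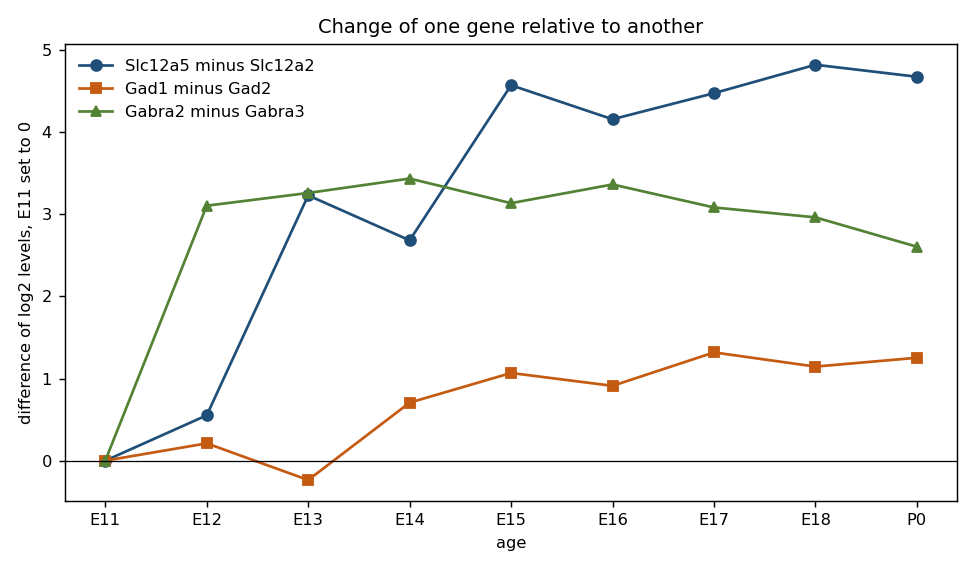
Difference of the log2 levels of 2 genes, with E11 set to 0 (y axis), against age (x axis) for 3 pairs, with 1 point per array. Slc12a5 minus Slc12a2 reached 4.67 and Gad1 minus Gad2 reached 1.25 at P0, while Gabra2 minus Gabra3 stood at 3.10 at E12 and 2.60 at P0. The E12 point of Gabra2 minus Gabra3 uses a Gabra3 reading under 5, so its height is not measured.

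Of the 27 probe sets of these genes, 19 passed the filter on low readings, of which 16 rose and 0 fell. These calls came from a fit over all 21724 probe sets kept, and the shares rising and falling there were not counted. Several of the probe sets read the same gene, so they are not separate members. The other Gad1 probe set read 4.31 at E11 and 8.67 at P0, with a slope of 0.65 ± 0.062, larger than that of the probe set used. The other Gad2 probe set had nearly the same slope as the one used, 0.24 ± 0.078 (SE, limma over all probe sets, adjusted p = 0.0312). All 3 probe sets of Gabra2, all 4 of Gabrb2 and both of Gabrg1 that passed the filter rose. The remaining Slc12a2 probe sets had slopes of 0.0072 and -0.072, neither of which passed (limma, adjusted p = 0.906 and 0.327). For Slc32a1, Slc12a5 and Gabra3 only 1 probe set passed the filter, so their course rests on it.

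The further genes of the GABA pathway were taken from a list of 64 names, of which 10 were not analysed here and 15 stayed under the filter. Of the 39 tested, 20 rose, 2 fell and 17 did not pass, beside 25.2% of all genes rising and 21.9% falling, with a median slope of 0.093. All 3 further GABA-A subunit genes tested rose. Gabra4, the alpha4 subunit, read 6.49, 4.97, 7.25, 7.44, 8.73, 9.33, 9.23, 9.68 and 9.34. Its low E12 reading and later climb followed the order seen in Gad1 up to E16. The slope of Gabra4 was 0.52 ± 0.086 (SE, limma, adjusted p = 0.000804).

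Gabra5, the alpha5 subunit, read 5.07, 6.72, 9.08, 8.68, 10.06, 9.88, 10.14, 9.97 and 10.14. Gabrb1, the beta1 subunit, read 3.05, 3.34, 7.73, 8.01, 9.64, 9.34, 9.38, 9.54 and 9.77. Both stood far lower at E11 and E12 than at any later age, and their readings from E15 to P0 spanned 0.26 and 0.44 log2 units. Their slopes were 0.56 ± 0.11 and 0.84 ± 0.16 (SE, limma, adjusted p = 0.00250 and 0.00201), with P0 33.6-fold above E11 for Gabra5 and at least 27.4-fold for Gabrb1. With readings under 5 set to 5 the slope of Gabrb1 was 0.62 (limma, adjusted p = 0.000906). Of the further subunit genes listed, 8 stayed under the filter and 4 were not analysed here. Among the 8, Gabrg3 read at most 3.13 and Gabrd, the delta subunit of extrasynaptic receptors, passed 5 on 1 array, at 5.66.

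Gabrg1, Gabra2, Gabra4 and Gabrb1 lie in this order next to each other on chromosome 5 in RefSeq, with Cox7b2, which encodes a subunit of the respiratory chain, between Gabra2 and Gabra4. All 4 receptor genes of the cluster rose, as did Gabrb2, Gabra3 and Gabra5 outside it. Within the cluster the readings at P0 stood 0.81 log2 units under the highest reading for Gabra2, 1.06 for Gabrg1, 0.34 for Gabra4 and 0 for Gabrb1. No test of the cluster was made.

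**Figure D5:**
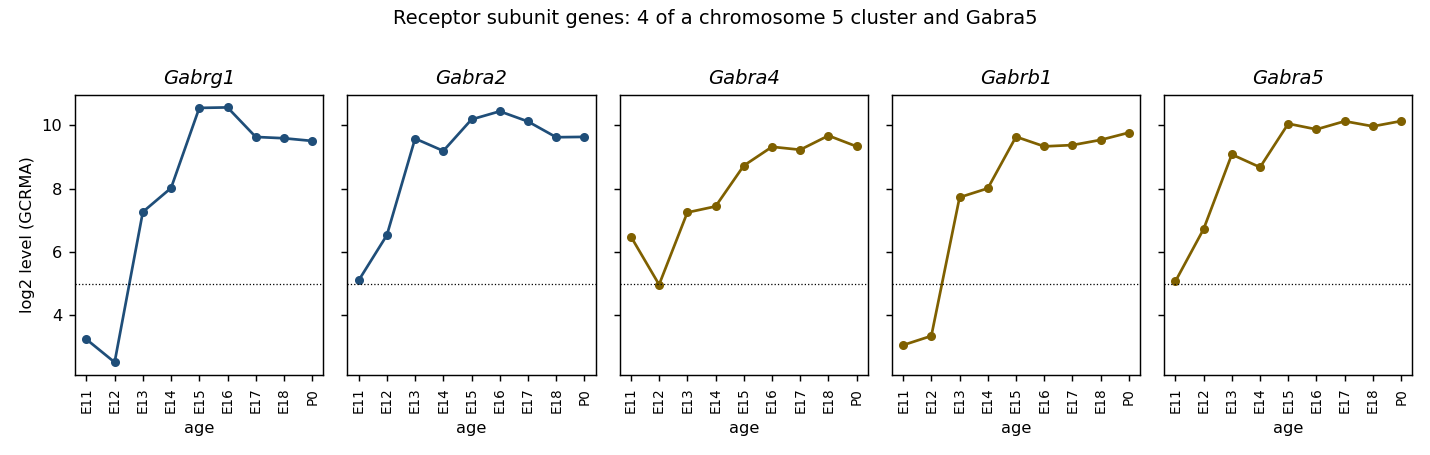
Log2 level (y axis) against age (x axis) of the 4 receptor genes of the chromosome 5 cluster and of Gabra5, 1 panel a gene, 1 array per age, with blue for Gabrg1 and Gabra2 and brown for the further genes of the pathway. The dotted line is the filter level of 5. Gabrg1 and Gabra2 were highest at E16 and stood 1.06 and 0.81 log2 units lower at P0.

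Of the genes of the metabotropic GABA-B receptor and its partner proteins, 1 of 3 rose. It was Gabbr1, a receptor subunit, with a slope of 0.21 ± 0.045 (SE, limma, adjusted p = 0.00413), a rise that did not pass from E13 to P0 (adjusted p = 0.0670). Of the GABA carriers of the plasma membrane, Slc6a13 read 2.60, 3.03, 2.85, 6.09, 8.10, 9.17, 9.50, 9.37 and 9.97. It was under 5 up to E13 and above it from E14 on, with a slope of 1.08 ± 0.12 (SE, limma, adjusted p = 0.000103). With readings under 5 set to 5 the slope was 0.75 (limma, adjusted p = 6.44e-05). Slc6a13 is also a gene of the meninges. Of the other 7 meningeal genes 6 rose, beside 25.2% of all genes tested. The median level of the 7 was 6.95 at E11, 5.61 at E12 and 10.01 at P0. The part of meningeal cells in the course of Slc6a13 was not tested. Slc6a11 and Slc6a12, further carriers, read at most 4.06 and 2.34.

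Of 3 genes of GABA breakdown 2 rose and 1, Aldh9a1, did not pass. Abat, the GABA transaminase, had a slope of 0.30 ± 0.043, and Aldh5a1, the succinate semialdehyde dehydrogenase, 0.18 ± 0.024 (SE, limma, adjusted p = 0.000381 and 0.000305). Of 4 genes of glutamine and glutamate supply 2 rose, among them Slc38a3, a glutamine transporter, with a slope of 0.48 ± 0.063 (SE, limma, adjusted p = 0.000225). Slc38a3 read 4.33 at E11 and 3.90 at E12, both under 5, so the size of its slope rests on low readings.

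Of 14 genes of the inhibitory synapse scaffold and of receptor traffic, 8 rose and 6 did not pass, beside 25.2% of all genes tested rising. Gphn, the gephyrin scaffold that anchors GABA-A receptors, had a slope of 0.17 ± 0.035 (SE, limma, adjusted p = 0.00278), which did not pass from E13 to P0 (adjusted p = 0.125). Nlgn2, the adhesion protein of inhibitory synapses, had a slope of 0.085 ± 0.033 that lay at the edge of the threshold (SE, limma, adjusted p = 0.0540). It passed without E12, without E15 and after quantile normalization (limma, adjusted p = 0.0272, 0.0480 and 0.0420). Under every other alternative it did not pass. Among these were the fits without E11 and from E13 to P0 (limma, adjusted p = 0.340 and 0.286) and the exact rank correlation (adjusted p = 0.236).

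Of 11 further genes of chloride transport and its kinases 3 rose, 2 fell and 6 did not pass, shares near those of all genes tested, 25.2% and 21.9%. Slc12a7, a potassium-chloride cotransporter like Slc12a5, fell, from its highest reading of 9.32 to its lowest of 5.79, with a slope of -0.46 ± 0.047 (SE, limma, adjusted p = 5.6e-05). Slc12a4, another such cotransporter, rose with a slope of 0.28 ± 0.065 (SE, limma, adjusted p = 0.00584). It read 3.31 at E11 and 4.64 at E13, and with readings under 5 set to 5 its slope was 0.15 (limma, adjusted p = 0.00369). Stk39, the kinase SPAK, which acts on chloride cotransporters, fell with a slope of -0.15 ± 0.038 (SE, limma, adjusted p = 0.00878). The call for Stk39 was lost without E11 (adjusted p = 0.0538) and from E13 to P0 (adjusted p = 0.322).

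The genes whose courses were most like Gad1 over the 9 arrays were Bmp5, Angptl4, Col6a1, Snx7 and Ppargc1a, with Pearson correlations of 0.993, 0.991, 0.990, 0.990 and 0.989. Each of these 5 was lower at E12 than at E11, as Gad1 was. They were picked for likeness to Gad1 over these same arrays, so the shared low reading is no separate result. Bmp5 and Col6a1 read under the filter level at both ages, so their order there is not measured. Those most like Slc12a5 were Rims1, a protein of the presynaptic release zone, Shroom2, Cnrip1, Pde4d and Hpcal4, with correlations of 0.999, 0.999, 0.997, 0.997 and 0.997. Rims1 read 5.36, 5.73, 8.29, 8.16, 9.41, 9.49, 9.31, 9.73 and 9.86, with the same plateau over E13 and E14 as Slc12a5. Rims1 was picked for likeness to Slc12a5 over these same arrays, so the shared plateau is no separate result. The points share 1 RNA sample per age, so these correlations describe likeness of course only.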

How the data were processed

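Per the submitters' processing notes, the authors used GCRMA (background correction by probe sequence, normalization between arrays), and 1 log2 value per probe set and array was deposited. The version used is not given in the sources used here. That the scale is log2 was taken from the spread of the values. The 45101 probe sets included 64 controls, and 34945 others carried exactly 1 gene symbol in the platform annotation. Probe sets other than controls at log2 5 or more on at least 2 of 9 arrays were kept, 21724 whether or not they carried 1 symbol. Those with exactly 1 symbol gave 10864 genes, each read by its probe set with the highest mean.

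Slopes were fitted with limma 3.58.1 in R 4.3.3 (age in days, P0 as day 19, eBayes with a trend, two-sided, Benjamini-Hochberg over all genes, threshold 0.05), with 7 residual degrees of freedom and a median residual SD of 0.241. The procedure was tested on simulated data. P-values measure only the scatter of single animals, 1 per age, around the fitted trend. In the slope fit that scatter also holds the misfit of a straight line to a stepped or curved course. The residual SD was 1.92 for Gabrg1, 1.33 for Gabra2 and 0.92 for Slc12a5. For the fold between P0 and E11, readings under 5 were set to 5.

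Named genes were the members, from the other pathway genes past the threshold the 3 steepest in each direction (of which 2 fell) plus a fixed set needed to describe a role, the 5 genes most correlated with Gad1 and with Slc12a5, Xist, and defining markers. Aldh9a1, Cox7b2, Slc38a3 and Slc6a12 were named after their values were seen. The members and lists were chosen with earlier results of these data known. A pair of planned gene pairs and 10 listed pathway genes were not analysed here. Promoters came from a RefSeq table (GRCm38.p6), which was used for 8 of 9 genes. The alternatives left out each array, used E13 to P0, rescaled the arrays, changed the filter, the floor, the day of P0, the probe set, the variance model or the test, or added embryo sex.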

Additional observations from a re-analysis of the deposited data

How the results depend on the processing

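Of 489 comparisons of single genes with an alternative, 462 kept direction and side of the threshold, 20 lost the call, 4 gained it and 3 turned. The 3 that turned had not passed: the Slc12a2 slope with the mean of its probe sets (-0.012), and the quadratic terms of Slc32a1 (between -0.073 and, without E15, 0.0041 with 1 array left out) and Gad2 (between -0.071 and, without P0, 4.6e-05). Members that rose numbered 5 from E13 to P0 and 5 by rank correlation, which lost Gabra2, Gabra3 and Gabrg1 both times. Among all genes 1529 rose and 1193 fell from E13 to P0, and 2065 rose and 2023 fell by rank correlation. Members with a peak ranged from 1 (without E15) to 4, with 2 without P0, and all genes with a peak from 213 (without E11) to 564, with 228, 307 and 315 without E15, E16 and E18. Other pathway genes that fell numbered 1 without E11, from E13 to P0 and by rank correlation. The Gabra2 minus Gabra3 slope was -0.11 from E13 to P0 and, with 1 array left out, between -0.069 (without E11) and 0.25. The differences of Slc12a5 with Slc12a2 and of Gad1 with Gad2 kept their call under every alternative run. The cause was not tested. Setting readings under 5 to 5 in the quadratic fit was added after seeing the data. Median centring and quantile normalization moved an array by at most 0.0884 and 0.0872 log2 units. No paired analysis was possible because no age had a replicate.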
